A study of Mus musculus with 8 samples.

Results

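The ETS family of transcription factors was examined at E15.5 in mouse heart ventricles with overproduced neuregulin-1. The 10 members were matched by symbol among the 53465 genes of the deposited table, and they and the gene lists used beside them were set with earlier results of these data known. They comprise the PEA3 group, *Etv1*, *Etv4* and *Etv5*, and 7 comparison members, *Etv6*, *Ets1*, *Ets2*, *Erg*, *Fli1*, *Elk3* and *Gabpa*. All 10 were found once each and all 10 passed the filter on low counts. The lowest count of any member in any library was 117, for *Etv4* in a WT library.

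RNA-seq of poly(A) RNA was available for 4 *Nrg1GOF* and 4 WT samples of heart ventricles. The *Nrg1GOF* embryos combine a neuregulin-1 transgene at the Rosa26 locus with the cardiac driver Nkx2.5-Cre, so the transgene is limited to cells of the *Nkx2.5* lineage and their descendants. The genotype label writes this driver as Nkx5.5-Cre, whereas the series title writes Nkx2.5-Cre. The controls are labelled WT, and the labels give neither a strain nor whether these controls carry Cre or the transgene alone. The submitters state 1 ventricle per replicate and name no litter, sex or date, so p-values measure the spread between these samples.

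ETS factors share a winged helix domain that binds DNA around a GGAA core, and they differ in their partners and in how they are regulated. The PEA3 factors act at the end of receptor tyrosine kinase, Ras and ERK signalling. Their genes are repressed by CIC until ERK relieves this repression, and their proteins are removed by the ubiquitin ligase COP1. In the developing heart ETV1 is known for its role in the trabecular myocardium and the fast conduction system, while ERG, FLI1 and ETS1 are best known from endothelium.

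The unit of level is CPM (counts-per-million, on the scaled library size). Library totals ranged from 8038641 counts in *Nrg1GOF* replicate 4 to 26786039 in WT replicate 1, and the other 3 *Nrg1GOF* libraries held at least 20578081. Libraries 1 and 2 and libraries 3 and 4 of WT formed close pairs, with correlations across genes of 0.989 and 0.991 against 0.980 for each other pairing. *Nrg1*, the overproduced gene, stood at 61.7 ± 1.90 CPM (SD, n = 4) in *Nrg1GOF* and at 4.03 ± 0.651 CPM in WT. Ventricular markers such as *Myh7* were abundant in every library, while lung markers were absent or close to absent, with a summed level of at most 0.499 CPM and *Sftpc* and *Cldn18* at 0.

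The PEA3 genes all rose in *Nrg1GOF*, and they did so to unequal extents. *Etv4* was 4.31-fold higher, *Etv5* 3.28-fold higher and *Etv1* 1.44-fold higher than in WT. Of the 7 comparison members, *Elk3* and *Ets1* rose, *Gabpa* fell, and *Etv6*, *Ets2*, *Erg* and *Fli1* did not pass the test. The members' median log2 fold change was 0.16, beside -0.01 over all 15580 genes tested. By the quasi-likelihood test of edgeR at an adjusted p under 0.05, 6 of 10 members were called, where 28.7% of all tested genes were called in either direction. Of all tested genes 15.9% were called higher and 12.8% lower in *Nrg1GOF*, beside 5 and 1 of the 10 members. The groups did not overlap for 8 members, 6 of them with *Nrg1GOF* above WT and 2 with it below, against 30.7% of all tested genes.

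**Figure D1:**
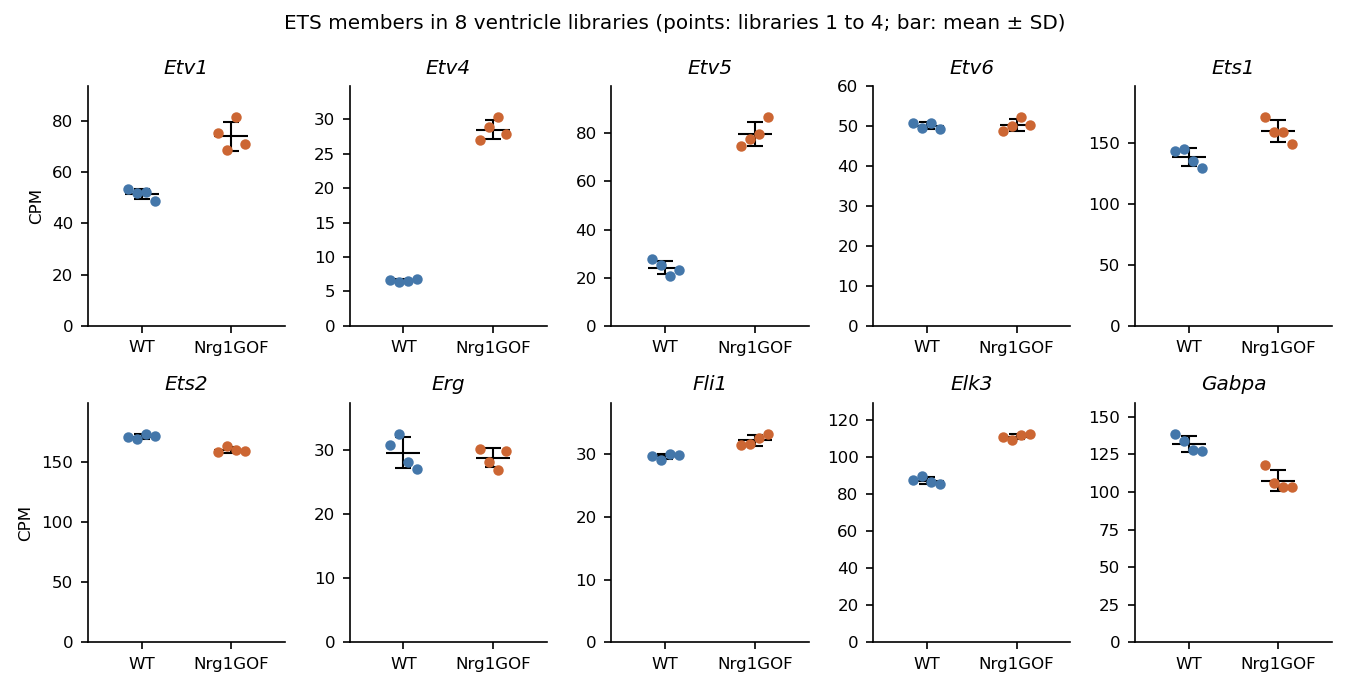
Levels of the 10 ETS members in CPM (vertical axes, each starting at 0) in the 4 WT and 4 *Nrg1GOF* libraries, with 1 point for each library and a bar for the mean ± SD. The *Etv4* points lie between 6.38 and 6.84 CPM in WT and between 27.1 and 30.3 CPM in *Nrg1GOF*, whereas the points of *Etv6* and *Erg* overlap between the groups.

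*Etv4* (ENSMUSG00000017724, GRCm38 chr11:101769742-101785371, minus strand) encodes the founding factor of the PEA3 group. Its level was 6.64, 6.38, 6.58 and 6.84 CPM in WT libraries 1 to 4 and 27.1, 28.8, 30.3 and 27.8 CPM in *Nrg1GOF* libraries 1 to 4. The replicates of each group lay close together and the groups were far apart, with means of 6.61 ± 0.189 and 28.5 ± 1.39 CPM (SD, n = 4). The log2 fold change was 2.11 (SE 0.07, adjusted p = 2.61e-07, edgeR). By its p-value *Etv4* ranked 3 among all tested genes, where *Nrg1* itself ranked 1.

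*Etv5* (ENSMUSG00000013089, GRCm38 chr16:22381309-22439719, minus strand) encodes another factor of this group. It was measured at 27.6, 25.3, 20.9 and 23.2 CPM in WT libraries 1 to 4 and at 74.9, 77.8, 79.6 and 86.7 CPM in *Nrg1GOF* libraries 1 to 4. The lowest *Nrg1GOF* library thus lay well above the highest WT library. The log2 fold change was 1.71 (SE 0.09, adjusted p = 3.07e-06, edgeR), and *Etv5* ranked 16 by p-value.

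*Etv1* (ENSMUSG00000004151, GRCm38 chr12:38779380-38870484, plus strand) encodes the PEA3 factor of the trabecular and conduction myocardium. Its level was 53.6, 51.8, 52.3 and 48.7 CPM in WT libraries 1 to 4 and 75.3, 68.6, 81.5 and 70.9 CPM in *Nrg1GOF* libraries 1 to 4. The groups did not overlap, and the spread was wider in *Nrg1GOF* (SD 5.64) than in WT (SD 2.07). The log2 fold change was 0.52 (SE 0.06, adjusted p = 0.000308, edgeR), and *Etv1* ranked 526 by p-value.

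The 3 PEA3 genes were next compared with each other within each library. The log2 ratio of *Etv4* to *Etv1* was 1.57 higher in *Nrg1GOF* than in WT (SE 0.07), and that of *Etv5* to *Etv1* was 1.20 higher (SE 0.11). The ratio of *Etv4* to *Etv5* was 0.37 higher (SE 0.11). None of these 3 ratios overlapped between the groups. Each had p = 0.0286 in an exact two-sided permutation test over libraries, which is the smallest p that 4 against 4 allows, and the same value after adjustment over the 3 pairs. *Etv4* and *Etv5* therefore each rose more than *Etv1*, which held with any 1 library left out, at adjusted p of 0.0286 to 0.0429 in the exact permutation test. The difference between *Etv4* and *Etv5* was at an adjusted p of 0.0571 in the same exact test when any of the 4 *Nrg1GOF* libraries or WT replicate 1 or 2 was left out, with a log2 value of 0.31 to 0.42 then. With libraries paired by replicate number, all 3 ratios had p = 0.125, the smallest that an exact permutation test of 4 pairs allows.

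These differences changed the makeup of the PEA3 transcripts. Divided by the length of all annotated exons, the summed level of the 3 genes was 11.9 ± 0.761 CPM per kilobase in WT and 34.2 ± 1.38 in *Nrg1GOF* (SD, n = 4). *Etv1* made up 32.6% ± 1.80 of this sum in WT and 16.3% ± 1.23 in *Nrg1GOF*. *Etv4* went from 17.9% ± 1.33 to 26.9% ± 1.14 and *Etv5* from 49.5% ± 2.79 to 56.8% ± 2.002. The shares depend on the length that is used, because *Etv1* has 13296 bases of annotated exon but a longest transcript of 6576 bases. With the longest transcript instead, *Etv1* made up 47.0% in WT and 26.1% in *Nrg1GOF*, and *Etv5* 36.4% and 46.4%, so that *Etv1* was the leading PEA3 transcript in WT and *Etv5* in *Nrg1GOF*. With either length the share of *Etv1* fell and the shares of *Etv4* and *Etv5* were higher in *Nrg1GOF*.

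**Figure D2:**
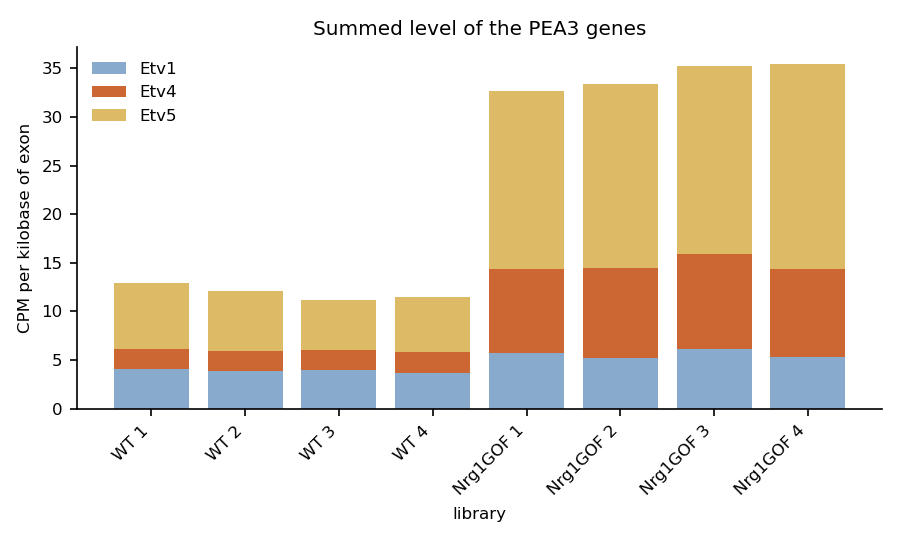
Levels of *Etv1*, *Etv4* and *Etv5* in CPM per kilobase of annotated exon (vertical axis), stacked for each of the 8 libraries. The summed height has a mean of 11.9 in WT and 34.2 in *Nrg1GOF*, and most of the added height is *Etv5* and *Etv4*.

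The RefSeq table of start-site windows (GRCm38.p6, 250 bases before and 50 after each start) held 11 windows for 7 of the 10 members. It held none for *Etv4*, *Ets1* and *Fli1*, which were therefore not searched. The 11 windows were searched on both strands for TGAATG, the core bound by CIC, the repressor of the PEA3 genes. They were also searched for AGGAAG, a sequence of the kind bound by PEA3 factors, and for CCGGAAG, a strong ETS core. The window at the second listed start of *Etv5* held TGAATG 3 times. Of all 32851 windows in the table, 12.7% held it at least once and 0.171%, or 56 windows, at least 3 times. TGAATG was in no other window of a member. CCGGAAG was in 1 of the 11 windows, that of *Gabpa*, and in 8.86% of all windows. AGGAAG was in 6 of the 11 windows, 1 each of *Etv1*, *Etv5*, *Etv6*, *Erg*, *Elk3* and *Gabpa*, and in 35.4% of all windows. It occurred 2 times in the windows of *Etv1* (first listed start) and *Gabpa*, where 8.62% of all windows held it at least 2 times, and 1 of the matches of *Etv1* lies before the start. Both stretches are shown because they belong to PEA3 genes that rose. Both lie outside annotated exons, inside the bounds of their gene, and are written 5′ to 3′ on the strand of the gene, up to the base before the start. Capitals mark TGAATG or its reverse complement in *Etv5* and AGGAAG in *Etv1*, and a match of letters does not show that a factor binds there.
Etv5, second listed start, chr16:22438369-22438618, minus strand: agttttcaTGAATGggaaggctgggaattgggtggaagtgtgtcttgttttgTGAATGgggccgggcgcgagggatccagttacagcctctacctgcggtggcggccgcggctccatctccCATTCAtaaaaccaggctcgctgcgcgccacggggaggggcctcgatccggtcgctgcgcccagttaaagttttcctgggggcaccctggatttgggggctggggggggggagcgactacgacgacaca
Etv1, first listed start, chr12:38779832-38780081, plus strand: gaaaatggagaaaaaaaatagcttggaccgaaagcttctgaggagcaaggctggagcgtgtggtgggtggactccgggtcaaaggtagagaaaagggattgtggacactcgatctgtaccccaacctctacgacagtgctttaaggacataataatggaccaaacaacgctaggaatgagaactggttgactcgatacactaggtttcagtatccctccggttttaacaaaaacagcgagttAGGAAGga

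The feedback inhibitors of the same pathway rose along with the PEA3 genes. The list held 9 genes that restrain receptor tyrosine kinase or ERK signalling, of the Sprouty, Spred and dual-specificity phosphatase families and *Il17rd*. Of these, 8 were called higher and none lower, where 15.9% of all tested genes were called higher, and the median log2 fold change was 0.63. *Dusp4*, a nuclear ERK phosphatase, had a log2 fold change of 1.67, *Spry4* of 1.27, *Dusp6*, the cytoplasmic ERK phosphatase, of 1.02 and *Spred1* of 0.73. *Il17rd* was measured at 10.2 to 14.6 CPM in WT and 12.6 to 15.1 CPM in *Nrg1GOF*, and the groups overlapped (log2 fold change 0.09, adjusted p = 0.626, edgeR).

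Genes that repress or degrade the PEA3 factors were counted next. Of 9 genes for CIC, its ATXN1 partners and the COP1 ligase, 1 was called, where 28.7% of all tested genes were. This was *Dda1*, a component of the ligase (log2 fold change 0.23, adjusted p = 0.0337, edgeR), and its groups overlapped. Its call was lost without *Nrg1GOF* replicate 2 or 4 or WT replicate 1, 2 or 3, with adjusted p between 0.0534 and 0.0844 (edgeR). The CIC partners *Atxn1* and *Atxn1l* had log2 fold changes of 0.25 and 0.22 that missed the threshold (adjusted p = 0.0627 and 0.0592, edgeR), and both passed it with a replicate block (0.0389 and 0.0235), where 3 of the 9 were called. *Cic* was at 160 to 178 CPM in WT and 149 to 196 CPM in *Nrg1GOF*, with a log2 fold change of -0.02 (SE 0.08). *Cop1* had a log2 fold change of -0.09 (SE 0.07), with overlapping groups. Among 10 genes for kinases of the pathway and partners of ETS factors, *Srf*, the partner of the ternary complex factors, was called lower (log2 fold change -0.22, adjusted p = 0.0306, edgeR) and 9 were not called, beside the same 28.7%. The *Srf* call was lost when any library but *Nrg1GOF* replicate 4 or WT replicate 2 was left out, with adjusted p between 0.0548 and 0.0804 (edgeR). The median over the repressor and ligase genes was -0.02 and that over the kinases and partners was -0.06, both close to the -0.01 of all tested genes.

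**Figure D3:**
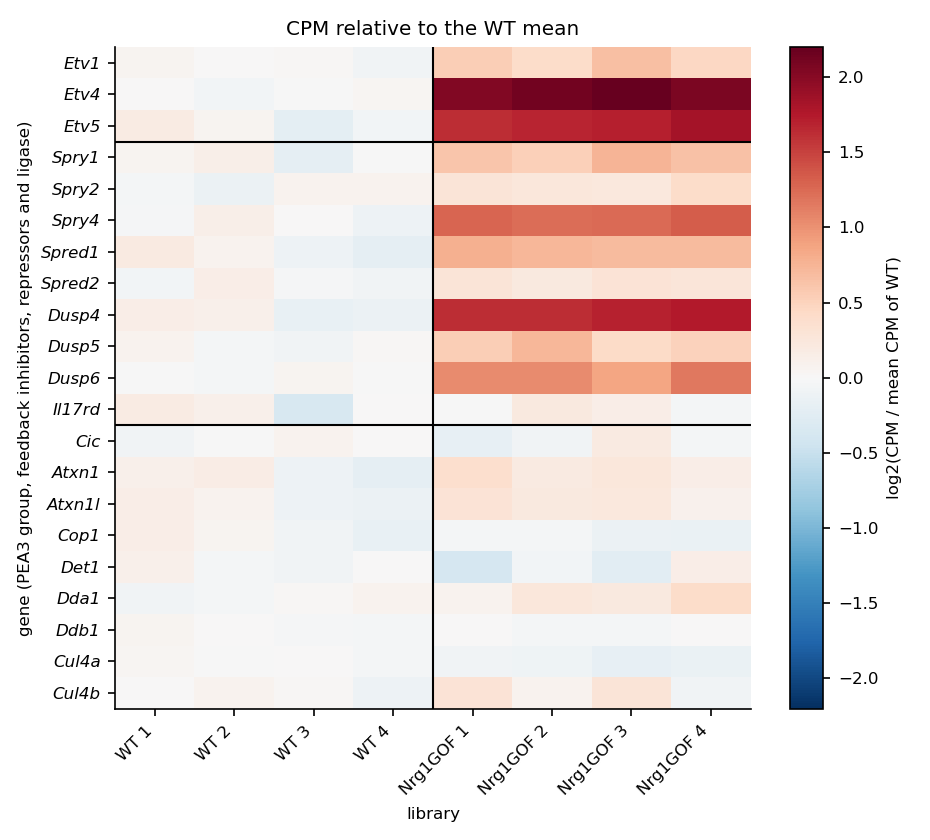
Log2 of each library's CPM over the mean CPM of the WT libraries (colour), for the PEA3 genes, 9 feedback inhibitors and 9 genes for repressors and the ligase (rows) in the 8 libraries (columns). The *Nrg1GOF* columns are raised for the PEA3 genes and for the feedback inhibitors other than *Il17rd*, and in the rows of the repressors and ligase most values lie close to the WT mean.

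Genes linked to the conduction system, in the fast part of which ETV1 is known to act, were counted beside *Etv1*. Of 7 such genes, 5 were called higher, none lower and 2 were not called, where 15.9% of all tested genes were called higher, with a median log2 fold change of 0.51. The Iroquois factor *Irx3* had a log2 fold change of 1.39, the T-box factor *Tbx3* of 1.01, the pacemaker channel *Hcn4* of 0.76 and the connexin *Gja5* of 0.51. Of 6 atrial markers, 2 were called higher, the atrial myosin light chains *Myl7* (log2 fold change 1.24) and *Myl4* (0.61). The other 4 were not called. They were *Sln* (1.89, adjusted p = 0.0767, edgeR), *Stard10* (0.40, adjusted p = 0.0887, edgeR) and the channel genes *Kcnj3* (0.03) and *Kcnj5* (-0.08). The summed level of the 6 atrial markers, most of it *Myl4*, was 1061 to 1198 CPM in WT and 1666 to 1821 CPM in *Nrg1GOF*. Of the variance of the mean atrial marker level 50.3% lay between the genotypes. With this level added to the model, 1999 genes were called in all in place of 4467. *Etv1* then had a log2 fold change of 0.47 (adjusted p = 0.0118, edgeR), *Etv5* of 1.61 and *Etv4* of 2.08. *Irx3* (1.58) and *Gja5* (0.61) were still called, and *Tbx3* (0.41), *Hcn4* (0.23) and *Tbx5* (0.23) were not.

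Of the endothelial ETS genes, *Ets1* (ENSMUSG00000032035), which encodes a factor of vessels and lymphocytes, was called higher. Its level was 144, 145, 136 and 130 CPM in WT libraries 1 to 4 and 171, 159, 159 and 150 CPM in *Nrg1GOF* libraries 1 to 4. The groups did not overlap, but the lowest *Nrg1GOF* library lay only slightly above the highest WT library. The log2 fold change was 0.21 (SE 0.06, adjusted p = 0.0268, edgeR). Without *Nrg1GOF* replicate 1, *Nrg1GOF* replicate 2, WT replicate 3 or WT replicate 4 the call was lost, with adjusted p between 0.0683 and 0.0800, and against WT libraries 1 and 2 alone the log2 fold change was 0.14 (adjusted p = 0.196, edgeR).

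*Erg* (ENSMUSG00000040732) and *Fli1* (ENSMUSG00000016087), a closely related pair of endothelial factors, were not called. *Erg* was at 30.8, 32.6, 28.2 and 27.1 CPM in WT and 30.2, 28.3, 27 and 30.0 CPM in *Nrg1GOF*, with overlapping groups and a difference of -0.04 on the log2 scale (SE 0.07, adjusted p = 0.724, edgeR). *Fli1* was at 29.6, 29.0, 30.0 and 29.8 CPM in WT and 31.4, 31.5, 32.6 and 33.2 CPM in *Nrg1GOF*. Each *Nrg1GOF* library lay above each WT library, by a small amount (log2 fold change 0.12, SE 0.05, adjusted p = 0.108, edgeR). When libraries were scaled by their totals alone, which moved the median of all tested genes from -0.01 to 0.03, *Fli1* had a log2 fold change of 0.16 and an adjusted p of 0.0388 by edgeR.

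*Ets2* (ENSMUSG00000022895), a broadly expressed factor phosphorylated by ERK, was at 169 to 173 CPM in WT and 158 to 163 CPM in *Nrg1GOF*. The groups did not overlap, yet the difference of -0.10 on the log2 scale (SE 0.04) was not called (adjusted p = 0.124, edgeR). *Elk3* (ENSMUSG00000008398), a ternary complex factor that acts with SRF, rose. Its level was 87.7, 89.6, 86.3 and 85.3 CPM in WT libraries 1 to 4 and 111, 109, 112 and 113 CPM in *Nrg1GOF* libraries 1 to 4, which is 0.35 higher on the log2 scale (SE 0.04, adjusted p = 0.000381, edgeR). Both groups were tight and clearly apart.

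The endothelial content of the samples was followed with 9 endothelial markers. Of these, 4 were called higher and none lower, where 15.9% of all tested genes were called higher, with a median log2 fold change of 0.08 and a summed level of 880 to 909 CPM in WT and 966 to 1042 CPM in *Nrg1GOF*. In bulk RNA, a change in the number of cells of a type and a change in the RNA per cell cannot be told apart. Relative to the mean log2 level of these markers, *Erg* was lower by 0.21 in *Nrg1GOF* (difference -0.21, SE 0.07) and *Ets2* was lower by 0.27 (difference -0.27, SE 0.02). *Elk3* was higher by 0.17 (SE 0.03). Each of these 3 had an adjusted p of 0.0476 over 5 genes by an exact two-sided permutation test over libraries, with no overlap between the groups. These 3 calls were lost without any of the 4 *Nrg1GOF* libraries or WT replicate 2, with adjusted p of 0.0714 to 0.0952 by the exact test. *Fli1* differed by -0.06 (SE 0.03, adjusted p = 0.179) and *Ets1* by 0.03 (SE 0.05, adjusted p = 0.629) in the same exact test, with overlapping groups. The differences rest on the choice of markers, whose own log2 fold changes ranged from -0.27 to 0.67.

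**Figure D4:**
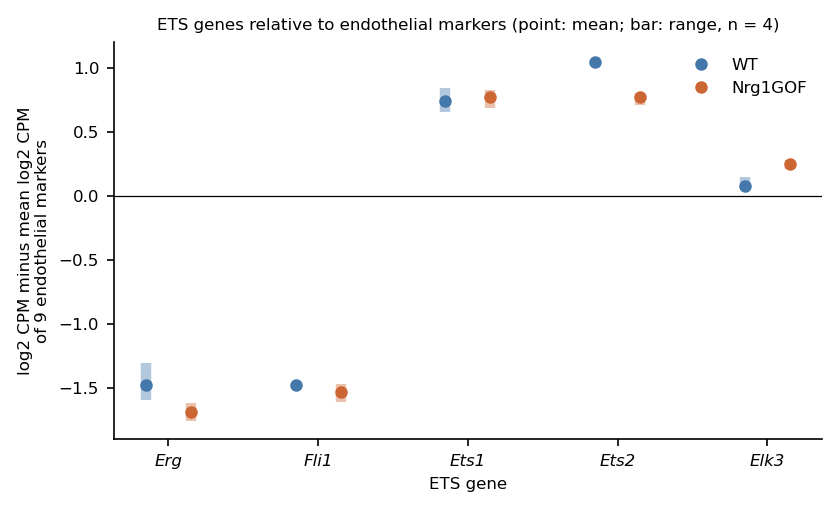
Log2 CPM of 5 ETS genes minus the mean log2 CPM of 9 endothelial markers (vertical axis) in WT and *Nrg1GOF*, with points for the mean and bars for the range of the 4 libraries. The bars of *Erg*, *Ets2* and *Elk3* are apart between the groups, those of *Fli1* and *Ets1* overlap.

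Known endothelial targets of ETS factors were also counted. Of 8 such genes, 3 were called higher, 1 lower and 4 not called, beside 15.9% higher and 12.8% lower over all tested genes, with a median log2 fold change of 0.11. The higher genes were *Vwf*, the von Willebrand factor of clotting (0.85), *Eng*, a TGF-beta co-receptor (0.64), and *Tek*, the angiopoietin receptor (0.45), and the lower gene was *Cldn5*, a tight junction protein (log2 fold change -0.83). *Cdh5*, the junctional cadherin of endothelium, was at 318 to 337 CPM in WT and 315 to 326 CPM in *Nrg1GOF* and was not called (log2 fold change -0.04, adjusted p = 0.608, edgeR).

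*Gabpa* (ENSMUSG00000008976), the DNA-binding part of the GABP complex that serves many housekeeping and mitochondrial genes, was the 1 member that fell. It was at 139, 134, 128 and 127 CPM in WT libraries 1 to 4 and 118, 106, 103 and 103 CPM in *Nrg1GOF* libraries 1 to 4. The groups did not overlap, and the log2 fold change was -0.29 (SE 0.06, adjusted p = 0.00517, edgeR). Its partner genes *Gabpb1* and *Gabpb2* had log2 fold changes of -0.03 and -0.06 with overlapping groups. *Etv6* (ENSMUSG00000030199), a repressor of the family, was at 50.8, 49.5, 50.9 and 49.2 CPM in WT and 48.8, 49.95, 52.2 and 50.2 CPM in *Nrg1GOF*. Its groups overlapped, and the log2 fold change was below 0.01 in size with an SE of 0.05 (adjusted p = 0.956, edgeR).

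Exons of 3 members overlap those of a gene on the opposite strand. The libraries were made with a directional kit, but the strand setting of the counting is not given in the sources used here, so reads of such overlaps could have been shared. *Elk3* overlaps *Cdk17*, which had a log2 fold change of -0.21 (adjusted p = 0.0413, edgeR), opposite in sign to *Elk3*. *Gabpa* overlaps *Atp5j*, a subunit of ATP synthase, which had a log2 fold change of -0.34 (adjusted p = 0.0158, edgeR), the same sign as *Gabpa*. *Etv6* overlaps *Gm17089*, which held at most 1 count in any library. The PEA3 genes overlap no annotated gene. The pairs *Fli1* and *Ets1* on chromosome 9 and *Erg* and *Ets2* on chromosome 16 are neighbours on opposite strands, 93.4 and 115 kb apart, with no protein-coding gene between them, and within each pair the log2 fold changes were 0.12 and 0.21 and -0.04 and -0.10.

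The order of the members by level per kilobase of exon changed between the groups. In WT it ran from *Ets2* at 29.5 CPM per kilobase through *Gabpa* at 23.2, *Elk3* at 19.2 and *Ets1* at 16.3 to *Erg*, *Fli1* and *Etv6* at 8.56, 8.49 and 8.38. *Etv5* at 5.91, *Etv1* at 3.88 and *Etv4* at 2.13 closed the order. The ranges of neighbouring genes overlapped only among *Erg*, *Fli1* and *Etv6*. In *Nrg1GOF* *Etv5* moved from position 8 to position 3, at 19.4 CPM per kilobase, where it overlapped with *Gabpa* and *Ets1*, and *Etv4* moved from position 10 to position 7, at 9.18, where it overlapped with *Fli1* and *Etv6*. With the longest transcript as the length, *Ets1* was second and *Etv1* stood above *Etv5* in WT, and in *Nrg1GOF* *Etv5* moved from position 9 to 5 and *Etv4* from 10 to 6.

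Of the 17 other ETS genes of the mouse, 8 were tested and 4 were called, 2 higher and 2 lower, where 28.7% of all tested genes were called. The other 9, *Etv2*, *Etv3l*, *Elf3*, *Elf5*, *Ehf*, *Fev*, *Spib*, *Spic* and *Spdef*, held at most 15 counts in any library and were too low to be tested. *Spi1*, the myeloid factor PU.1, was at 1.36 to 1.72 CPM in WT and 2.37 to 2.99 CPM in *Nrg1GOF*, from 19 to 66 counts in a library (log2 fold change 0.81, SE 0.18, adjusted p = 0.00779, edgeR). Of 8 macrophage markers, 8 were called higher, where 15.9% of all tested genes were called higher. The summed level of the macrophage markers was 57.4 to 70.9 CPM in WT and 112 to 130 CPM in *Nrg1GOF*. The part of these cells in the level of *Spi1* was not tested. *Etv3*, a repressor, also rose (33.2 ± 1.39 to 40.2 ± 0.911 CPM, log2 fold change 0.28). *Elf4* fell by 0.49 on the log2 scale (95.6 ± 3.99 to 68.0 ± 3.34 CPM, adjusted p = 0.0002, edgeR), and *Elf2* fell by 0.18 (adjusted p = 0.0156, edgeR), a call that was lost without *Nrg1GOF* replicate 2 (0.0532). *Elf1*, *Elk1*, *Elk4* and *Erf*, an ETS repressor regulated by ERK, were not called, with log2 fold changes from -0.09 to 0.16 and overlapping groups.

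**Figure D5:**
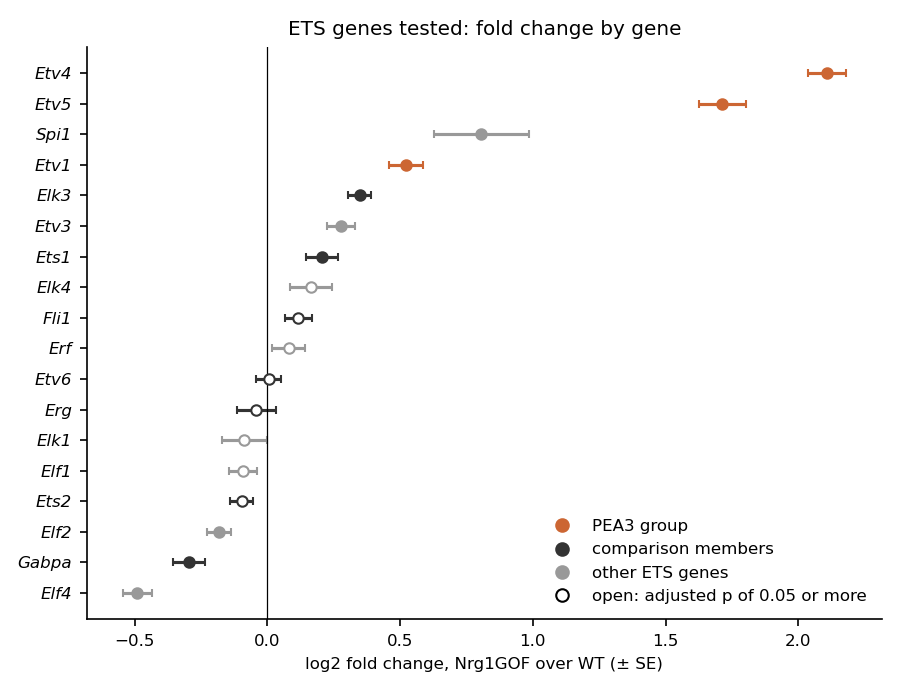
Log2 fold change of *Nrg1GOF* over WT with its SE (horizontal axis) for the 18 ETS genes that were tested (rows), coloured by group, with open points where the adjusted p was 0.05 or more. *Etv4* at 2.11 and *Etv5* at 1.71 lie apart from the other genes, which range from -0.49 to 0.81.

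The mesenchymal and epicardial markers also differed between the groups, with 8 of 9 called higher and 1, *Tbx18*, called lower (log2 fold change -0.33). Of all tested genes 15.9% were called higher and 12.8% lower. The summed level of these 9 markers, most of it *Col1a1* and *Postn*, was 2089 to 2714 CPM in WT and 3645 to 4821 CPM in *Nrg1GOF*. Of the 6 ventricular cardiomyocyte markers 4 were called lower, beside the 12.8% of all tested genes. The summed level of these 6 markers, most of it *Myh7* and *Actc1*, was 38943 to 41320 CPM in WT and 29513 to 37270 CPM in *Nrg1GOF*. *Actc1* itself was not called (log2 fold change 0.001, adjusted p = 0.992, edgeR). The part of these cell types in the levels of the PEA3 genes was not tested. The number of ventricular markers called fell to 2 without *Nrg1GOF* replicate 1 or 2 or WT replicate 3 or 4.

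The genes whose levels most resembled those of the PEA3 genes were listed from 13029 genes outside the ETS family. Over the 8 libraries the log2 level of *Etv5* correlated most closely with *Dusp4* (Pearson's r = 0.999), *Thbs4*, *Lsp1*, *Ckap4* and *Ankrd1*. *Etv4* correlated most closely with *Fkbp10* (r = 0.998), *Colgalt1*, *Ccn1*, *Nrg1* (r = 0.996) and *Adam23*. *Etv1* correlated most closely with *Atp8b2* (r = 0.995), *Glis3*, *Dab2*, *Csdc2* and *Srgap2*. These coefficients describe 8 points in 2 clusters and mainly reflect the difference between the groups, which 48 genes shared with *Etv5*, 33 with *Etv4* and 3 with *Etv1* at r of 0.99 or more. After the group means were taken out, none of these 15 genes was among the 5 closest, which were led by *Chst12* for *Etv5*, *Efemp2* for *Etv4* and *Fam133b* for *Etv1*.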

How the data were processed

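RNA-seq gene expression of 4 *Nrg1GOF* and 4 WT ventricle samples was analysed. The deposited values, made by the authors with RSEM, are expected counts of genes, which are not scaled for depth or length, and the submitters' processing notes name cutadapt and RSEM 1.3.1 on GRCm38. The table's name gives Ensembl release 91. The aligner and strand setting are not given in the sources used here. Of the 80 values of the members, 8 were not whole, all of 1 member, by at most 0.45 of a count.

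Expected counts were rounded, genes were kept by filterByExpr, libraries were scaled by TMM, and the groups were compared with the quasi-likelihood F-test of edgeR 4.0.16 (R 4.3.3), as two-sided tests with Benjamini-Hochberg adjustment over 15580 genes. A gene is called at an adjusted p under 0.05. The SE of a log2 fold change was obtained as its size over the root of the F statistic. Log2 ratios used CPM with a prior count of 2 and exact permutation tests. Coordinates and lengths came from GENCODE M21 (GRCm38), and start-site windows from RefSeq (GRCm38.p6). A level of 3 counts was 0.112 to 0.373 CPM, for counting error only.

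All members were named. Of the other ETS genes those called with the 3 largest changes in each direction and 5 fixed genes were named, and of other lists up to 4 called genes with the largest changes. *Cop1*, *Gabpb1*, *Gabpb2*, *Cdh5*, *Il17rd*, *Tbx5*, *Cic*, *Atxn1*, *Atxn1l*, *Kcnj3*, *Kcnj5*, *Sln*, *Stard10*, *Tbx18*, *Actc1* and *Myh7* were added after their values were seen. The members and lists were chosen with earlier results of these data known. Alternatives used limma 3.58.1, DESeq2 1.42.0, other scalings and filters, unrounded counts, a replicate block, marker covariates and subsets of libraries. No library was left out.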

Additional observations from a re-analysis of the deposited data

Results flagged for a closer look

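In 54 groups of 4 values, 4 had a highest or lowest value that lay far from the other 3, where chance gives about 1 in 20, or 2.7. The total of *Nrg1GOF* replicate 4 was 8038641 counts, and the other 3 libraries of its group held 20578081 to 22547833. The log2 ratio of *Etv4* to *Etv1* was -2.82 in WT replicate 4 and -3.00 to -2.97 in the other WT libraries. The log2 level of *Ets2* over the endothelial markers was 1.02 in WT replicate 1 and 1.06 in the other 3. That of *Elk3* was 0.15 in WT replicate 2 and 0.05 to 0.06 in the other WT libraries.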

How the results depend on the processing

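Of 956 recomputed values, 830 kept their side of the threshold, stayed within 1.5 times for counts, or moved by less than the SD for levels per kilobase. Values called neither in the report nor in the alternative were not checked for direction, and some changed sign. *Erg*, for example, had a log2 fold change of -0.04 in the report and 0.07 against WT libraries 3 and 4 alone. *Etv1*, *Etv4* and *Etv5* were called in every alternative except the endothelial marker covariate. With that covariate 0 of the 10 members, 0 PEA3 genes and 0 other ETS genes were called, and 1 gene of 15580 was called in all. The log2 fold changes were then 0.50 for *Etv1* (adjusted p = 0.730, edgeR), 2.28 for *Etv4* (0.136) and 1.82 for *Etv5* (0.373), and that of *Spi1* turned to -0.021. By its construction this covariate leaves little to test, since 93.5% of its variance lay between the genotypes. Of the other ETS genes 2 were called against WT libraries 1 and 2 alone and 2 with the atrial covariate. *Ets1* lost its call in 10 of 25 alternatives and *Elf2* in 8. The calls of *Elk3* and *Gabpa* were lost with the endothelial covariate alone. Apart from that covariate, the called genes numbered 0 to 3 (1 in the report) for the repressors and ligase, 0 to 2 (1) for kinases and partners, 2 to 6 (5) for conduction genes, 1 to 5 (4) for ventricular, 2 to 4 (2) for atrial and 5 to 8 (8) for macrophage markers. Over all genes 2535 were called at an adjusted p under 0.01, 2464 with the WT pairs summed and 1999 with the atrial covariate, against 4467.

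Leaving out each library in turn gave 5 to 6 called members, 3 called PEA3 genes and 3 to 4 other ETS genes, with log2 fold changes of 0.48 to 0.56 for *Etv1*, 2.08 to 2.13 for *Etv4* and 1.65 to 1.78 for *Etv5*. Scaling by library totals alone made 65.4% of all calls higher, against 55.4%. With the replicate number as a block (replicate block), 6 members and 4524 genes were called, and the log2 fold changes were 0.52, 2.11 and 1.72. Deviations of same-numbered libraries correlated at 0.0492 to 0.199, so the numbers were not taken to pair the samples. The ratio differences had adjusted p of 0.125 (PEA3 pairs 1.57, 1.20 and 0.37) and 0.156 (*Erg* -0.21, *Ets2* -0.27 and *Elk3* 0.17) with the replicate block, and 0.0667 and 0.111 with the WT pairs averaged. Neither design can reach 0.05. Without 1 library the values were 0.31 to 0.44 for *Etv4* against *Etv5*, 1.53 to 1.62 for *Etv4* against *Etv1* and 1.12 to 1.25 for *Etv5* against *Etv1*. Against the endothelial markers they were -0.25 to -0.16 for *Erg*, -0.28 to -0.25 for *Ets2* and 0.16 to 0.19 for *Elk3*. *Spi1*, with 19 counts in the lowest library, lost its call against WT libraries 1 and 2 alone (adjusted p = 0.0536, edgeR) and with the atrial covariate (0.103), and kept it with all libraries thinned to the smallest total (0.0453).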
